A study of Mus musculus and Rattus norvegicus with 80 samples.

Results

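Reads that align to copies of long interspersed element-1 (LINE-1, L1) were compared between the testes and the lungs of the same 3 male rats. The comparison covers 6 of the 80 libraries of the series, chosen by their labels alone: the testis and the lung of rats 967, 968 and 974, all of strain F344 and 4.8 mo of age. No treatment or genetic change is given for any of them. The study asked in which organs of mice and rats L1 mRNA is made, and from which genomic copies. Pieces of each organ were lysed gently, the cytoplasmic RNA was kept, polyadenylated RNA was selected, and strand-specific paired-end libraries were sequenced. Whole organ pieces hold many cell types, so fewer cells of a type and less RNA per cell cannot be told apart.

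L1 is a retrotransposon that copies itself through an RNA intermediate. A full-length copy carries its own promoter, and its mRNA encodes an RNA-binding protein, ORF1p, and ORF2p, an endonuclease and reverse transcriptase that inserts the new copy. The germ line is the cell lineage in which a new insertion can be inherited, and male germ cells are known to restrain L1 through DNA methylation and piRNAs, the small RNAs that guide silencing of transposons. Reads that align to an L1 can also stem from longer transcripts that merely contain one.

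Reads were counted on 4563 windows of the rat genome build rn6, each from an annotation of full-length L1 copies and called a locus here. Of these, 4058 were 6000 bp long and none was longer. The other 505 were shorter, down to 18 bp, so a window need not hold a whole L1. A total of 2286 lay on the plus strand and 2277 on the minus strand, and 1372 had a name that stands for more than 1 place. Mapped reads ranged from 16.9 M to 20.1 M in testes and from 15.98 M to 24.84 M in lungs. One read pair usually gave 2 reads, since between 88.7% and 95.5% of the loci with reads had an even number in these libraries. A count of 3 reads, taken as the smallest that can be told from none, corresponded to between 0.121 and 0.188 reads per M mapped reads. Such floors cover counting error only, and they count reads rather than read pairs. A floor of 3 read pairs would be higher, and the bounds measured against it smaller. All 12 rat libraries were most like another library of their own organ (correlation of log2 reads per M over 1991 loci), with r from 0.505 to 0.530 among testes, from 0.716 to 0.734 among lungs and from 0.314 to 0.355 between testis and lung. The deposited values hold no genes, so the organs were not checked with marker genes, and which gene, if any, a locus lies in was not analysed here.

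Lungs had more L1 reads in total than testes, and 1 locus carried them. These totals hold all reads on annotated loci, before any inspection in a genome browser. The study summed only the loci it kept after such inspection, and by that measure it reported more L1 mRNA in rat testes than in rat lungs. The testes of rats 967, 968 and 974 had 422, 378 and 405 L1 reads per M mapped reads, and the lungs of the same rats had 1361, 1393 and 1294. Every lung was above every testis. The means were 402 ± 22.4 (SD, n = 3) in testes and 1349 ± 50.4 (SD, n = 3) in lungs, a 3.36-fold difference in favour of lung and a log2 difference of -1.75 for testis minus lung. The exact permutation test, two-sided, gave p = 0.1, the smallest that 3 libraries against 3 allow, and the exact sign-flip test within rats gave p = 0.25, the smallest for 3 pairs. Over the 6 single-value comparisons of the 2 organs made in this way, a permutation p of 0.1 became 0.12 after Benjamini-Hochberg adjustment, so that none of them could pass 0.05.

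The locus that carried these reads was L53 (chromosome 1 of rn6, 20114770 to 20120769, plus strand), whose name stands for 2 places. L53 is not among the loci that the study listed for any rat organ after its inspection of reads. It had 4992, 5130 and 5424 reads in the testes and 24694, 21558 and 30986 in the lungs, in the order of rats 967, 968 and 974. All lungs lay above all testes. L53 held between 66.6% and 70.7% of the L1 reads of a testis and between 96.3% and 96.9% of those of a lung. Its level was 46.3 ± 2.69 FPKM (SD, n = 3) in testes and 217 ± 8.69 in lungs, FPKM being reads per kb of window per M mapped reads. The log2 fold change was -2.23 ± 0.06 (SE) with an adjusted p of 1.95e-19 (quasi-likelihood F-test in edgeR, adjusted by Benjamini-Hochberg), a 4.70-fold higher level in lung. These reads covered a small piece of the window, from 12.3% to 15.1% of it in testes and from 12.4% to 12.8% in lungs. Livers and brains of the same rats also had many reads there, with a mean of 125 FPKM in livers and 81.7 FPKM in brains.

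Without L53 the order of the organs turned. All the other loci together had 126, 111 and 135 reads per M in the testes and 41.7, 44.8 and 47.3 in the lungs, so that every testis exceeded every lung. The means were 124 ± 12.3 (SD, n = 3) and 44.6 ± 2.80 (SD, n = 3), 2.77-fold higher in testis, with a log2 difference of 1.47 (exact permutation test, p = 0.1, the smallest possible). Within single rats the log2 difference ranged from 1.31 to 1.59. Leaving out L53 was chosen after the data had been seen. When the 10 loci with the most reads were left out instead, an alternative that covers more than this locus, the log2 difference was 1.38.

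**Figure D1:**
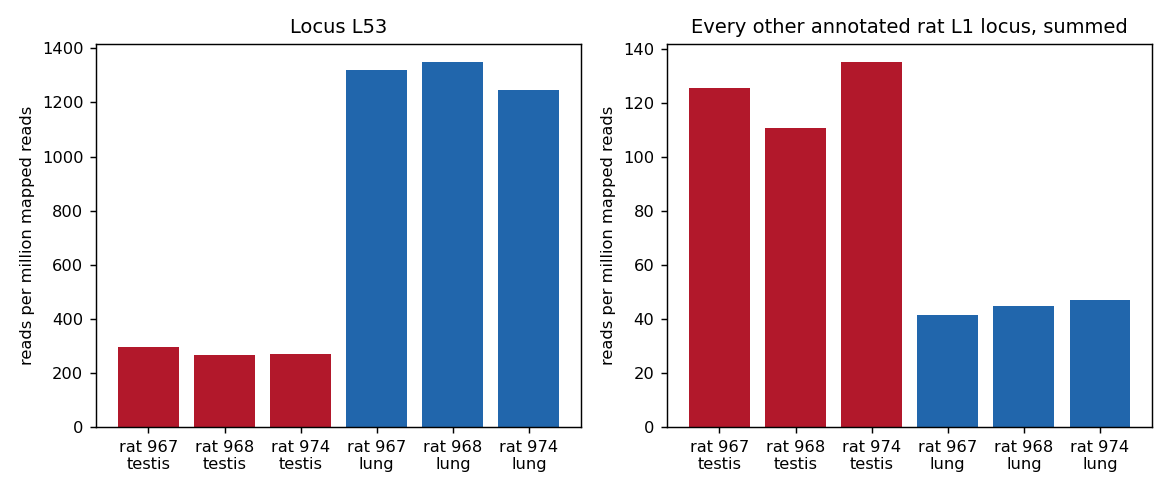
L1 reads per M mapped reads in each library, for locus L53 in the left panel and for all other annotated rat L1 loci summed in the right panel, with testes in red and lungs in blue. L53 stood higher in all 3 lungs, with means of 278 reads per M in testes and 1305 reads per M in lungs. The sum of the other loci was higher in all 3 testes, with means of 124 reads per M in testes and 44.6 reads per M in lungs. The vertical axes differ 10-fold.

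More loci had reads in testes. At least 1 read was found on 400, 451 and 537 loci in the testes and on 168, 167 and 255 loci in the lungs. Loci with more than 10 reads numbered 18, 17 and 20 in testes and 11, 9 and 14 in lungs. Every testis exceeded every lung in both counts, and the latter differed by 7 loci on average (exact permutation test, p = 0.1, the smallest possible). Most loci with reads had 1 or 2, namely between 77.8% and 82.0% of them per testis and between 77.4% and 81.4% per lung.

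At equal depth, the expected number of loci with reads was 400, 451 and 529 in testes and 92.9, 99.5 and 120 in lungs. Equal depth means that every library was reduced to the smallest total of L1 reads, which works against lungs because L53 takes nearly all of their reads. Without L53, the expected numbers were 247, 273 and 282 in testes and 165, 166 and 221 in lungs. The organs still did not overlap, but the mean difference fell from 356 to 83.5 loci (exact permutation test, p = 0.1 for both). The 10 loci with the most reads held 83.7% ± 1.71 (SD, n = 3) of the L1 reads in testes and 98.2% ± 0.251 in lungs, and without L53 these shares were 48.1% ± 2.15 and 47.6% ± 2.38, a difference within the spread between rats (exact permutation test, p = 0.8).

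**Figure D2:**
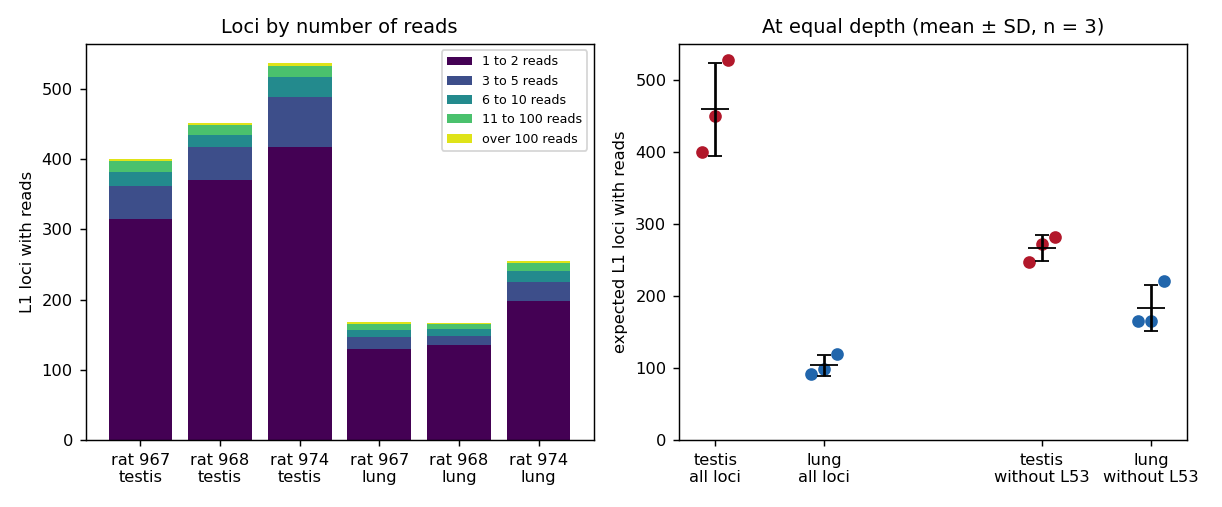
Number of L1 loci with reads per library, split by the number of reads on the locus (left), and the number expected at equal depth with and without locus L53 (right), where points are rats, the horizontal mark is the mean and the bars are the SD of 3 rats. Loci with 1 or 2 reads make up most of each bar, and testes stay above lungs without L53, with a mean difference of 83.5 loci in place of 356.

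Few loci had reads in all animals at this depth. Most loci with reads had only 1 or 2 in a library, so recurrence and sharing depend on depth. They say little about differences between animals or organs. In all, 1362 loci had a read in any of the 6 libraries and 3201 had none, which was 70.2% of the windows. A read was found on 1079 loci in any testis and on 67 of them in all 3 testes (6.21%). For lungs these numbers were 458 and 39 (8.52%). Testis and lung shared 175 loci, which was 16.2% of the testis loci and 38.2% of the lung loci. A total of 42 loci had reads in all testes and no lung, 14 had reads in all lungs and no testis, and 10 had reads in all 6 libraries. The values of the organs did not overlap for 53 loci that were higher in testis (3.89% of the 1362 with reads) and for 25 that were higher in lung (1.84%).

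Only 19 loci reached 10 reads in 3 or more of the 6 libraries and could be tested with edgeR, with mapped reads as library sizes. All 19 passed an adjusted p of 0.05 (100% of those tested), 11 higher in testis (57.9%) and 8 higher in lung (42.1%). This count says little about L1 loci at large. Only 4 of the 19 are on the study's lists of testis or lung loci kept after inspection in a genome browser: L1126, L2295, L6347 and L5024. Of the 19, 8 had fewer than 10 reads in every lung and 5 fewer than 10 reads in every testis, so that they entered the test through the organ in which they were higher and had to differ. The 8 are L4206, L5125, L4399, L1126, L6347, L6136, L3382 and L5024, and the 5 are L5091, L3574, L1016, L849 and L7497. Their adjusted p-values, given below, were shaped by this selection and are no support for a difference. At least 10 reads were present in all 6 libraries for 3 loci: L53, L3422 and L5280. When all 1362 loci with reads were tested without this filter, 39 passed (2.86%), 25 higher in testis (1.84%) and 14 higher in lung (1.03%).

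Of the tested loci that were higher in testis, L4206 (chromosome 8, 1927461 to 1933460, plus strand), a name with 2 places, had the most reads. L4206 is not on the study's list for any rat organ. It had 556, 528 and 600 reads in the testes and 4, 4 and 8 in the lungs. The organs were far apart, at 5.02 ± 0.462 FPKM (SD, n = 3) and 0.0437 ± 0.00919 FPKM, a 115-fold difference. The log2 fold change was 6.78 ± 0.25 (SE, edgeR adjusted p = 7.32e-17). L4206 entered the test through the testes alone, so this p-value is no support for the difference. As with L53, the reads lay on a small piece of the window, between 10.7% and 10.8% of it in each testis.

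Several loci had reads in every testis and none in any lung. L5125 (chromosome 11, 20975239 to 20981238, plus strand) had 63, 52 and 70 reads in the testes and 0 in each lung. Its mean of 0.551 ± 0.0898 FPKM (SD, n = 3) was at least 21.2-fold higher than the floor of 3 reads per library allows for lung. The reads were spread over 52.6% to 54.2% of the window, and no liver or brain had a read there. Of the named loci with reads in testes alone among the 12 rat libraries, L5125 had the highest level and the widest cover.

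L4399 (chromosome 8, 74274119 to 74280118, plus strand) had 26, 34 and 42 testis reads, no lung read and 6 reads in 1 brain. It was at least 11.5-fold higher in testis. L1126 (chromosome 2, 70404428 to 70410427, plus strand, a name with 2 places) had 39, 33 and 18 testis reads on 8.72% to 14.5% of its window. None was found in the lungs, which makes it at least 10.5-fold higher in testis. L6347 (chromosome 15, 74094412 to 74100411, plus strand) had 22, 30 and 29 testis reads and no read in lung, liver or brain, and was at least 9.19-fold higher. The edgeR adjusted p of these 4 loci was between 1.86e-09 for L5125 and 3.14e-07 for L1126. All 4 entered the test through the testes alone, so these p-values are no support for the difference.

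A further group was strong in testis with a trace in lung. L6136 (chromosome 15, 292674 to 298673, plus strand) had 18, 22 and 32 testis reads against 0, 0 and 2 in lung. In read pairs this was a ratio of 38.2 with an exact 95% interval from 6.43 to 1549, which covers counting error only. L3382 (chromosome 2, 122174428 to 122180427, minus strand) had 16, 22 and 32 testis reads against 0, 2 and 2, a ratio of 18.6 in pairs (exact 95% interval from 4.77 to 159), on only 3.93% to 4.38% of its window. L5024 (chromosome 8, 86747577 to 86753576, minus strand) had 18, 21 and 28 testis reads, while the lung of rat 967 had 4 and the others none, a ratio of 18 in pairs (exact 95% interval from 4.62 to 155). In each of the 3 loci the lowest testis was well above the highest lung, with log2 fold changes of 5.01 ± 0.713, 4.08 ± 0.638 and 4.01 ± 0.695 (SE) and edgeR adjusted p-values of 1.07e-06, 3.89e-06 and 1.25e-05. All 3 entered the test through the testes alone, so the separation and these p-values are no support for the difference. The sizes also rest on few lung reads. Without the lung of rat 974, the only one with reads on L6136, its fitted log2 fold change was 7.54. That of L5024 was 7.54 without the lung of rat 967, the only one with reads on it, and 3.30 without the lung of rat 974.

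L4384 and L3422 had reads in every testis and every lung and were higher in testis. Neither is on the study's list for any rat organ. L4384 (chromosome 8, 60622337 to 60628336, plus strand, a name with 2 places) had 64, 64 and 120 reads in the testes and 10, 4 and 18 in the lungs. It was 8.68-fold higher in testis, with a log2 fold change of 3.04 ± 0.371 (SE, edgeR adjusted p = 1.79e-07). Its testis reads covered between 42.7% and 70.7% of the window, the widest cover of the tested loci, and brains had 25, 10 and 16 reads whereas livers had none. L3422 (chromosome 6, 6180602 to 6182105, plus strand), with a window of only 1504 bp, had 218, 205 and 274 reads in the testes and 121, 85 and 140 in the lungs. Per kb of its short window it was second to L53 in both organs, while in reads per M L4206 was above it in testis (30.1 against 12.4). Its level was 8.25 ± 1.03 FPKM (SD, n = 3) in testis and 3.86 ± 0.393 FPKM in lung, a 2.14-fold difference with a log2 fold change of 1.09 ± 0.186 (SE, edgeR adjusted p = 1.07e-05). With DESeq2 and its own size factors, which were set by these 19 loci alone, this call was lost (adjusted p = 0.290). With the L1 reads outside L53 as library sizes the sign turned (-0.38), and L3422 passed in favour of lung (edgeR adjusted p = 0.0327).

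L715 (chromosome 15, 50312987 to 50318986, minus strand) was at the limit of the test. It had 24, 14 and 27 reads in the testes and 13, 4 and 20 in the lungs, and these values overlapped after scaling. The log2 fold change of 0.92 ± 0.438 (SE) had an edgeR adjusted p of 0.0473. With the rat as a block in the fit, which pairs the organs of each animal, the adjusted p was 0.058, and it ranged up to 0.513 over the alternatives. None of the livers and brains had a read there.

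On the lung side, 3 loci had no testis read at all. L5091 (Y chromosome, 574227 to 580226, minus strand, a name with 2 places) had 39, 50 and 82 reads in the lungs, and livers had 10, 10 and 14. Against the floor it was at least 17.6-fold higher in lung than in testis, and its lung reads covered between 44.2% and 56.7% of the window. The X chromosome held L3574 (13751964 to 13757963, minus strand), with 38, 16 and 48 lung reads, which was at least 10.3-fold higher. L1016 (chromosome 2, 38662794 to 38668793, plus strand) had 14, 12 and 22 lung reads and was at least 4.93-fold higher. The edgeR adjusted p was 6.74e-09 for L5091, 1.90e-07 for L3574 and 6.54e-06 for L1016. All 3 entered the test through the lungs alone, so these p-values are no support for the difference. Liver and brain had at most 4 reads per library on L3574 and at most 2 on L1016.

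L849 (chromosome 2, 3076023 to 3082022, plus strand) had 29, 49 and 59 reads in the lungs against 0, 4 and 2 in the testes. Its level was 0.388 ± 0.127 FPKM (SD, n = 3) in lung and 0.0171 ± 0.0173 FPKM in testis. In pairs the ratio in favour of lung was 22 with an exact 95% interval from 7.23 to 109 (log2 fold change -4.36 ± 0.555 SE, edgeR adjusted p = 2.33e-07), and the log2 fold change was -5.27 without the testis of rat 968. L7497 (chromosome 10, 70359710 to 70365709, minus strand) had 13, 19 and 12 lung reads and 0, 0 and 3 testis reads. In pairs the ratio in favour of lung was 10.8 with an exact 95% interval from 2.68 to 94.9 (edgeR adjusted p = 0.000223). The log2 fold change of -3.68 became -6.86 without the testis of rat 974, which had the only testis reads, and with total L1 reads as library sizes the call was lost (edgeR adjusted p = 0.0708). Both loci were higher in every lung than in any testis. They also entered the test through the lungs alone, so their p-values are no support for the difference.

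L2295 (chromosome 4, 6018959 to 6024958, plus strand, a name with 2 places) had 50, 52 and 48 reads in the lungs and 8, 16 and 2 in the testes. It was 5.59-fold higher in lung, with a log2 fold change of -2.46 ± 0.446 (SE, edgeR adjusted p = 2.13e-05), and the reads lay on 7.28% to 7.90% of the window in lungs. Without the testis of rat 968 the log2 fold change of L2295 was -3.21, and with total L1 reads as library sizes, which L53 dominates, the call was lost (-0.71, edgeR adjusted p = 0.0933). L5280 (chromosome 2, 105001590 to 105007589, minus strand, a name with 2 places) had the smallest difference among the loci that were higher in lung. It had 28, 24 and 28 reads in the testes and 49, 48 and 54 in the lungs, a 1.81-fold difference (log2 fold change -0.85 ± 0.30 SE, edgeR adjusted p = 0.0108). The lung reads of L5280 covered 1.90% to 2.22% of the window, that is 114 to 133 bp. Livers and brains had 58 to 186 and 68 to 113 reads on L5280, so it was a locus with reads in every rat library. With total L1 reads as library sizes the log2 fold change of L5280 turned to 0.90 and passed in favour of testis (edgeR adjusted p = 0.00712).

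**Figure D3:**
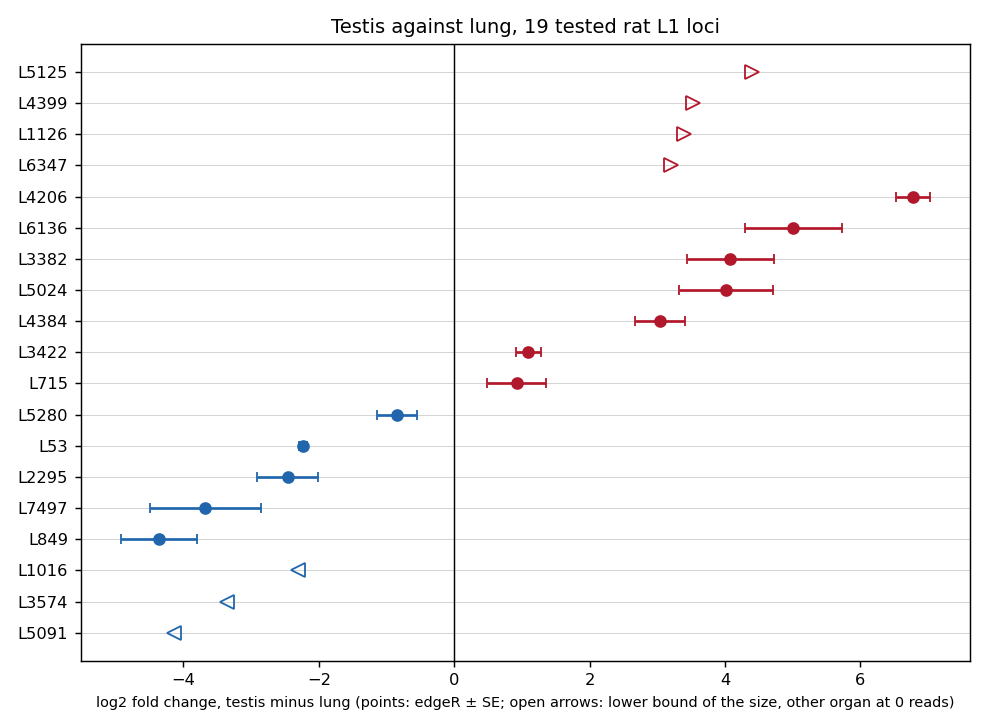
Log2 fold change, testis minus lung, of the 19 tested loci, where points are edgeR estimates with their SE (n = 3 per organ) and open arrows mark the least size of the change where the other organ had 0 reads, measured against a floor of 3 reads per library. The 11 loci in red were higher in testis and the 8 in blue higher in lung, with L715 nearest to the threshold of the test.

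The other organs of these rats were fitted together with testis and lung over all 12 rat libraries, in which 30 loci could be tested. Testis differed from lung at 20 of the 30 loci (66.7%), from liver at 20 (66.7%) and from brain at 18 (60%). Lung differed from liver at 14 (46.7%) and from brain at 17 (56.7%). L4206 was higher in testis than in the other organs, with log2 fold changes of 7.93 against liver and 8.81 against brain (adjusted p = 7.1e-47 and 1.7e-48). L3422 was higher in testis than in liver by 1.75 on the log2 scale (adjusted p = 9.1e-09) but differed from brain by 0.30 only (adjusted p = 0.32). For L53 the order from high to low was lung, liver, brain and testis, with lung above liver by 0.80 and testis below brain by 0.82 on the log2 scale (adjusted p = 4.3e-14 and 1.4e-14), while liver and brain were not tested against each other. For L849, testis did not pass against liver (log2 0.81, adjusted p = 0.54), while lung was above liver by 5.19 and above brain by 2.30 (adjusted p = 9.2e-09 and 0.00073). All adjusted p-values here are from edgeR. These contrasts share the testis and lung libraries with the comparison of testis and lung itself. Loci chosen for a high level in testis or in lung therefore tend to be high there again. In this fit L715 did not pass between testis and lung (adjusted p = 0.209).

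**Figure D4:**
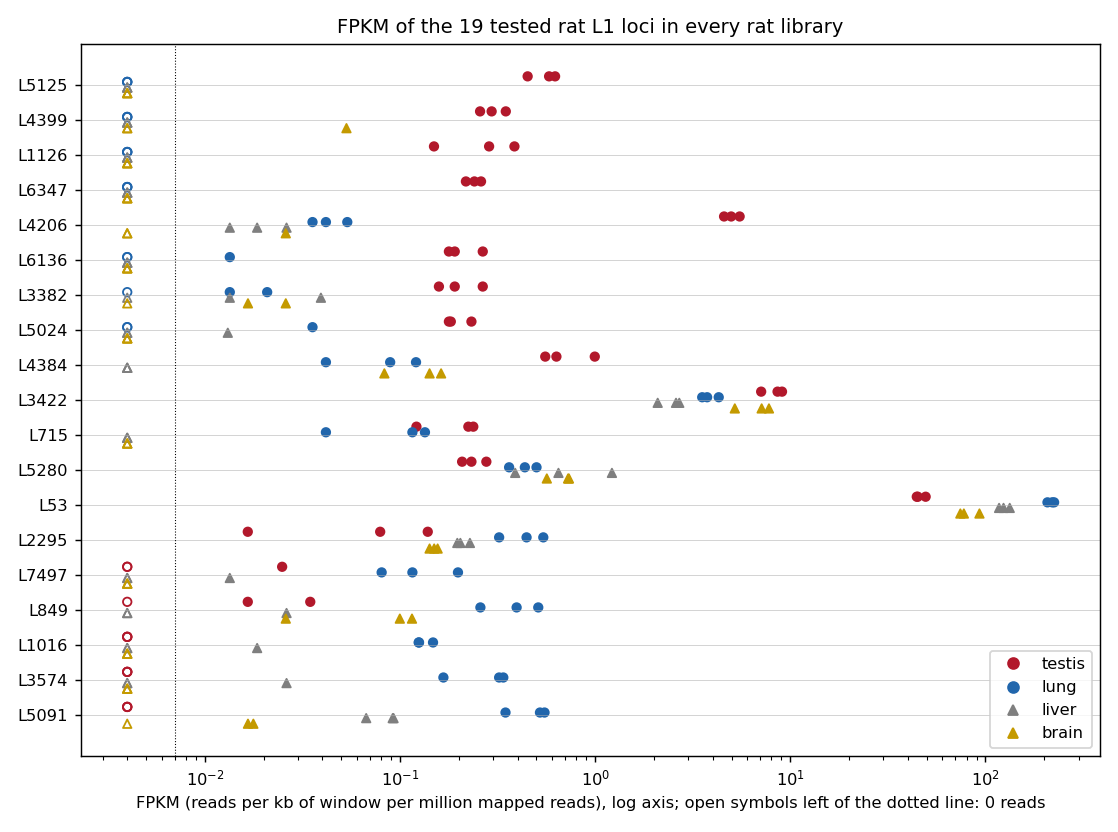
FPKM of the 19 tested loci in all 12 rat libraries on a log axis, with circles for testis and lung, triangles for liver and brain, and open symbols left of the dotted line for libraries with 0 reads. Loci are ordered by their log2 fold change, testis minus lung: L5125 at the top had reads in testes alone, and L5091 at the bottom had none in testes.

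In the organ with more reads, the mean part of the window that was covered ranged from 2.09% for L5280 to 54.4% for L4384. In the 6 libraries, the median fraction covered of loci with more than 10 reads was 0.185, 0.151 and 0.228 in testes and 0.164, 0.158 and 0.173 in lungs. These values overlapped and the organs did not differ beyond the spread between rats (exact permutation test, p = 0.5). L53, L4206, L1126, L2295, L3382 and L5280 had their reads on at most 15.1% of the window in that organ and the other. In the organ with more reads, the number of reads per 100 covered bp was 3419 for L53, 87.1 for L4206, 50.4 for L3422, 40.2 for L5280, 11.1 for L2295, 9.52 for L3382 and 4.44 for L1126. The other 12 tested loci had between 1.38 and 2.53. When only loci with a mean fraction covered of at least 0.2 were tested, 11 were left, 8 higher in testis and 3 higher in lung. What the reads on short stretches stem from was not tested.

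**Figure D5:**
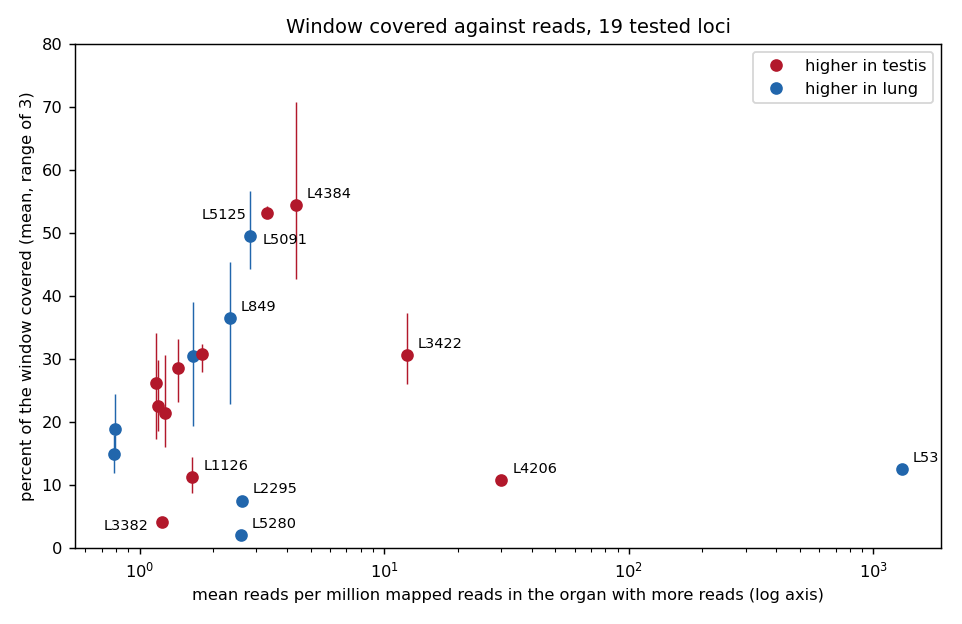
Percent of the window covered by reads against mean reads per M mapped reads, each in the organ with more reads, for the 19 tested loci (points are means and vertical lines the range of 3 rats, red for higher in testis and blue for higher in lung). L53, L4206, L1126, L2295, L3382 and L5280 lie low on the plot, whereas L4384, L5125 and L5091 covered from 42.7% to 70.7% of their windows.

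By position, the 162 loci of chromosome 8 had 710, 692 and 841 reads in the testes and 36, 22 and 43 in the lungs, the largest sum of any chromosome in each testis once L53 was left out, and L4206 had most of the testis reads. The tested loci on it were L4206, L4384, L4399 and L5024, and all but L4384 had fewer than 10 reads in every lung. On the Y chromosome, 42 loci had 8, 4 and 13 reads in the testes and 43, 50 and 86 in the lungs, and nearly all of the lung reads were those of L5091. The 397 loci of the X chromosome held 1.08% ± 0.0568 (SD, n = 3) of the L1 reads in testes and 0.219% ± 0.0383 in lungs (exact permutation test, p = 0.1, the smallest possible). This share, like the total, turned without L53, to 3.50% ± 0.222 in testes and 6.65% ± 1.25 in lungs, where L3574 alone had 16 to 48 of the 39 to 77 reads. In reads per M the order did not turn. X chromosome loci had 4.27, 4.16 and 4.53 reads per M in testes and 3.31, 2.44 and 3.10 in lungs.

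The study listed loci of each organ after inspecting their reads in a genome browser, 9 places for rat testis and 5 for rat lung. These lists were chosen on the same libraries, so their direction is no independent evidence. Of the 36 loci with more than 10 reads in any of the 6 libraries, 7 were on them. From the testis list, 3 loci passed the count filter: L1126 and L6347 were higher in testis and L2295 was higher in lung. The median log2 fold change of the 3 was 3.20 with the loci at 0 in lung set to their bound, beside 1.09 over all 19 tested loci. Summed over the list, with each locus taken as 6 kb, the level was 0.877 ± 0.131 FPKM (SD, n = 3) in testes and 0.449 ± 0.102 in lungs, and nearly all of the lung value was L2295.

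The other testis loci of the list had few reads. L134 (chromosome 9, 51096886 to 51098781, minus strand, a window of 1896 bp) had 16, 6 and 22 testis reads and none in any other organ, and was at least 5.03-fold higher than the floor in lung. It passed in the fit without a count filter (edgeR adjusted p = 4.32e-09), which counts both reads of a pair as if they were independent. L6523 (chromosome 16, 26046485 to 26052484, plus strand) had 12, 4 and 2 testis reads against 0, 0 and 2 in lung. L4463 (chromosome 8, 100121928 to 100127927, plus strand) had 0, 8 and 4, and L1234 (chromosome 4, 29008766 to 29014765, minus strand), L6681 (chromosome 4, 175821041 to 175827040, minus strand) and L4544 (chromosome 3, 36393387 to 36399386, minus strand) had at most 6 reads in any testis and at most 2 in any lung. At this depth a difference between organs was not detectable for L1234, L4544 and L6681.

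From the lung list only L5024 passed the count filter, and it was higher in testis. In the fit without that filter, L6644 and L137 were higher in lung (log2 fold change -5.70 and -5.51, edgeR adjusted p = 0.0102 and 0.0287), where the fitted size depends on the absence of testis reads. That fit also counts both reads of a pair as if they were independent. The lung list as a whole summed to 0.144 ± 0.0479 FPKM (SD, n = 3) in lungs and 0.197 ± 0.0302 FPKM in testes, all of the latter from L5024. The other 4 listed lung loci had no testis read. L6644 (chromosome 16, 56887165 to 56893164, plus strand) had 2, 7 and 11 lung reads and L137 (chromosome 1, 55314313 to 55320312, plus strand) had 2, 10 and 4. L1385 (chromosome 2, 125221110 to 125227109, plus strand) had 4, 2 and 2 lung reads, and L253 (chromosome 1, 73330266 to 73336265, plus strand) had 2 reads in 1 lung. L6644 and L137 were at least 2.04-fold and 1.85-fold higher than the floor in testis. For L1385 and L253 no difference above the floor was detectable at this depth.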

How the data were processed

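Read pairs had been aligned by the authors to rn6 with bowtie. Only unique alignments were kept and duplicates were removed, after which bedtools was used to count sense reads on every annotated L1. For each locus the authors deposited a count, with mates counted separately and before any browser inspection, and the fraction of the window that reads covered. Either of 2 sequencing platforms was used in the study, and which one each library had was not given in the sources used here. Mapped reads per library were recovered by dividing deposited counts by the FPKM in the study's list, on which all listed loci of each of these libraries agreed within 0.1%. The number was identical for the lung of rat 974 and the liver of rat 967 (24.8 M), and whether it is true for both cannot be told.

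Loci were told apart by name and position. Loci with at least 10 reads in at least 3 of the 6 libraries were tested in edgeR 4.0.16 (R 4.3.3) by its quasi-likelihood F-test, mapped reads being the library size, with Benjamini-Hochberg adjustment at 0.05. The pipeline was tested on simulated data. Single values were compared with exact permutation and sign-flip tests, both two-sided. L1 reads per library numbered 7110, 7259 and 8140 in testes and 25475, 22274 and 32161 in lungs.

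Loci are named when they are on the study's testis or lung list, among the 8 with the largest log2 fold change in each direction that pass and do not overlap, among the 5 with the highest FPKM in an organ, or in a group of 5 or fewer. L715 and the untested loci of the closing section were chosen after their values were seen. The members and lists were chosen with earlier results of these data known. The labels give testis and lung of a number to the same rat. Over the 19 loci the deviations of testis and lung from their means had r of 0.331, 0.422 and 0.194 within rats. Between rats r was at most 0.0233. Deviations from the mean of an organ are not independent of each other, and the pairing was not tested, so it rests on the labels. The testes of rats 967 and 968, and the lungs of rats 967 and 974, agreed within sampling noise over the tested loci (chi-square test of counts). They shared 115 of 736 and 58 of 365 loci with reads, which cannot tell whether they are distinct, since most loci had very few reads. By their labels they are different animals, so that they were kept as separate samples. Leaving out each of them in turn is among the alternatives. Alternatives were other library sizes, DESeq2 1.42.0, other count filters, the rat as a block, each library left out, all 12 rat libraries in one fit, merged windows, a minimum of coverage and halved counts. Those without L53 were chosen once the data had been seen. Python 3.11.15, numpy 2.4.6, scipy 1.17.1, pandas 2.3.3 and matplotlib 3.10.9 were used.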

Additional observations from a re-analysis of the deposited data

How the results depend on the processing

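The difference in total L1 reads between the organs depends on few loci: the log2 difference of -1.75 (testis minus lung) became 1.38 without the 10 loci with the most reads and 1.47 without L53. The share on the 10 highest loci went from -14.6 to 0.50 percentage points without L53, and the X chromosome share from 0.858 to -4.81 without the 10 highest loci and -3.14 without L53. The number of loci past the threshold went from 19 to 39 with no filter on counts (25 higher in testis, 14 in lung), 12 with at least 20 reads (7 and 5) and 11 with a fraction covered of at least 0.2, of which 3 were higher in lung. In these 3 settings the number of loci tested differs (1362, 12 and 11). Total L1 counts as library sizes left 5 higher in lung against 12 in testis (70.6% testis), moved the median log2 fold change by 1.68, turned L5280 to 0.90 and lost L7497 and L2295. DESeq2 with its own size factors gave 17 loci, without L715 and L3422. Total L1 counts without L53 gave 9 in each direction, moved the median by -1.40 and turned L715 to -0.55 and L3422 to -0.38. TMM on total L1 counts moved it by -0.47, with 10 higher in testis and 8 in lung. With the rat as a replicate block 18 loci passed (10 and 8), L715 being the only call that changed (adjusted p = 0.058, edgeR). Without 1 library at a time, 18 to 19 loci passed, 10 to 11 of them higher in testis and 8 in lung, and L715 was the only call lost, namely without the testis of rat 967 or 974 or the lung of rat 968 or 974. The total then ranged from -1.79 to -1.71, the number of loci over 10 reads from 5.83 to 8.33, loci at equal depth from 321 to 386, the share on the 10 highest from -15.2 to -13.6, the X share from 0.836 to 0.891 and the median fraction covered from 0.00286 to 0.0415. Depth limits the rest: most loci with reads had 1 or 2, where no difference between organs is detectable. Reads that align to more than 1 place were dropped by the authors, and how this bears on each locus was not tested.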

Other observations

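Below the count filter, further loci passed in the fit without that filter. Tested over all 1362 loci with reads, 21 loci outside the 19 passed an adjusted p of 0.05 (edgeR), 15 higher in testis and 6 higher in lung. Of the 15, 14 had no read in any lung, and none had more than 28 reads in a testis. L1304 (chromosome 15 of rn6, 95120844 to 95126522, minus strand) had 7, 6 and 26 testis reads and L3503 (chromosome 6, 41704082 to 41710081, plus strand) had 10, 9 and 16, all without a lung read. Of the 6 that were higher in lung, 3 had no testis read. L8155 (chromosome 1, 102976223 to 102982222, minus strand) had 18, 8 and 29 lung reads against 1, 1 and 2 in testis, and L3284 (chromosome 5, 107296448 to 107302447, plus strand) had 10, 6 and 10 against none. L134, L6644 and L137 of the study's lists are among the 21. The others named here were chosen after their values were seen. Low counts of a mate pair are not independent, and the fit without a filter counts them as if they were.

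Outside the 19 tested loci, the remaining L1 reads amounted to 60.4, 55.1 and 70.1 reads per M in the testes, spread over 386, 436 and 521 loci. Lungs had 21.2, 23.2 and 26.6 reads per M on 155, 154 and 241 loci. The testis values were thus higher in every rat also for this dispersed part of the signal, which was not tested separately.

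The loci that the study listed for rat liver and brain had few reads in both organs. The 6 liver loci had at most 2 reads in sum in any of the 3 lungs and in any of the 3 testes, and the 5 brain loci had 2, 2 and 13 reads in testes and 10, 4 and 12 in lungs. L1020 (chromosome 2, 18889200 to 18895199, minus strand) had 0, 0 and 9 of the former and 8, 2 and 10 of the latter.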
